A study of Oncorhynchus mykiss with 16 samples.

Results

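The step examined here is the first of the culture, from day 3 to day 8 after seeding, in adipocyte precursor cells of rainbow trout (Oncorhynchus mykiss). It comprises 8 of the 16 arrays of the study, those titled Day 8 and Day 3 in cultures 4, 8, 9 and 10, so 4 arrays stood against 4 and each culture gave 1 pair. Each culture was a separate pool of cells from the visceral white adipose tissue of 6 to 7 farmed fish, taken as the pellet after collagenase digestion and lysis of red blood cells. All 8 arrays held cells kept at 18 °C in the same growth medium, which was Leibovitz's L-15 with fetal bovine serum, and the differentiation mixture of insulin, IBMX, dexamethasone and lipid was added only after confluence at day 8. The paper calls the day 3 cells mesenchymal stem cells and the day 8 cells proliferated cells. Strain, age and sex of the fish are not given in the sources used here. The cultures of days 15 and 21, which had received the mixture, entered the probe filter and the model's estimate of the spread. They are quoted where a course over days is described.

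Preadipocytes are the fibroblast-like precursors of fat cells, and in culture they first attach, spread and divide until they touch each other. In mammals growth arrest at confluence precedes the hormone-induced program, in which PPARγ and the C/EBP factors switch on the genes of lipid uptake and storage. Wnt signals, retinoic acid receptors and the glucocorticoid receptor are known as regulators of that entry, and glucose uptake supplies both growth and later lipid synthesis.

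The arrays carried 60195 probes that were not controls. Levels are given as log2 of the processed signal relative to the 75th percentile of the same array, so a value of 0 is the level of that percentile. Between 65.5% and 80.5% of spots on the 8 arrays were well above background, with the lowest share in culture 10 at day 3, and no spot was saturated. In every culture the arrays of both days lay on different slides. Slide 1 held day 3 of cultures 8, 9 and 10 and day 8 of culture 4, and slide 2 held the opposite arrays, so the days were unevenly divided between slides. The number of cultures limits the precision of all tests.

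From day 3 to confluence at day 8, 996 probes rose and 607 fell, each by more than 3-fold with a Benjamini-Hochberg adjusted p below 0.02 in limma. Of the 42541 probes tested these made up 2.34% and 1.43%, or 3.77% in both directions. The median difference of the higher probes was 2.08 on the log2 scale and that of the lower probes -2.08, against -0.046 over all tested probes. Direction was shared by all 4 cultures for 975 of the higher and 600 of the lower probes, while 17.4% and 21.9% of all tested probes rose or fell in all 4. The 4 arrays of day 8 did not overlap those of day 3 for 889 and 504 of the called probes, compared with 9.80% of all probes above and 11.5% below. The same arrays set the calls, which favours a shared direction and separate days. Such counts therefore describe the called probes and are no independent check. Fewer probes fell than rose, but 90 of those that fell had a ratio above 10, against 72 of those that rose. Of these, 41 and 30 were well above background on all 8 arrays, and the other ratios rest in part on signals near background. In whole-culture RNA, a loss of cells of one type and less RNA per cell cannot be told apart.

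**Figure D1:**
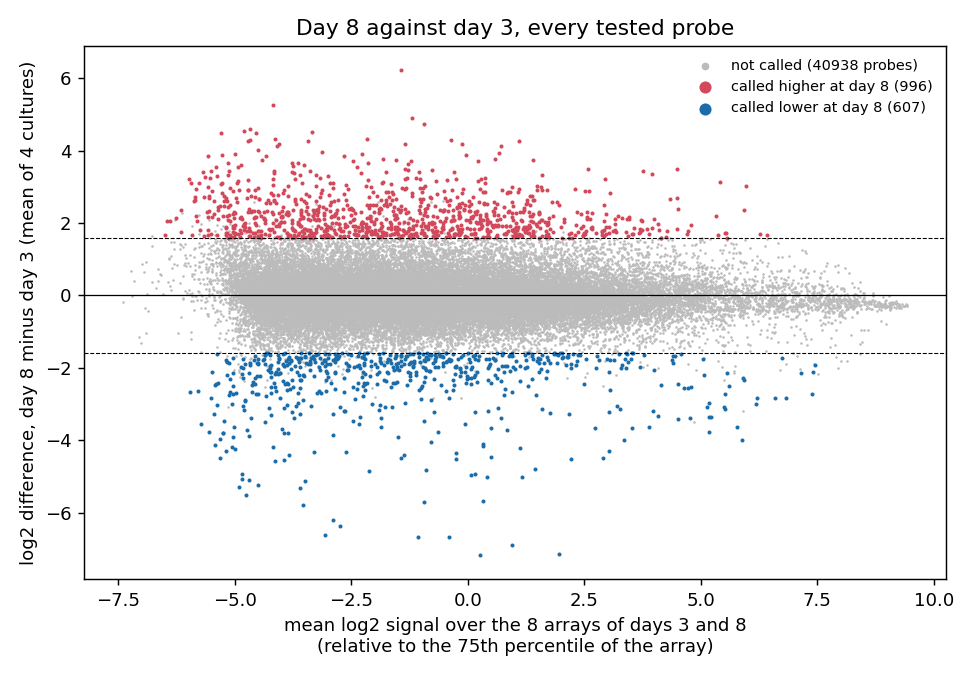
Every tested probe by its mean log2 signal over the 8 arrays (x axis, relative to the 75th percentile of the array) and its mean log2 difference, day 8 minus day 3, over 4 cultures (y axis). Red points are the 996 probes called higher, blue points the 607 called lower, and the dashed lines mark a ratio of 3. The plotted differences of called probes run from -7.17 to 6.22, including probes not well above background on all 8 arrays, and among those measured on all 8 in 1 direction the extremes are -7.14 and 4.89.

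Called probes occurred at every signal level. Among the 20% of probes with the lowest signal, 3.31% were called higher and 2.04% lower, and among the 20% with the highest signal 1.49% and 1.27%. The median difference was -0.10 in the brightest class and 0.046 in the dimmest. For 85 of the higher probes no day 3 array, and for 37 of the lower probes no day 8 array, had a signal well above background, so their ratios are bounds. Where all 4 arrays of the other day measured the probe (67 and 36 probes), the mean of that day was set against a floor. On each dim array the floor was the lowest signal well above background, or the probe's own signal where that was higher. The largest such bound was at least 13.2-fold for a rise and at least 11.9-fold for a fall. The median bound was 2.66-fold for the rises and 4.26-fold for the falls, so many of the rises are not shown to exceed 3-fold. A further 240 higher and 153 lower probes were well above background on only some arrays of the dim day.

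By origin of the probe sequence, 500 of 23411 tested contig probes rose (2.14%) and 373 fell (1.59%). Of 6128 probes from GenBank sequences 166 rose and 87 fell, and of 12942 probes from single sequencing reads 328 rose and 146 fell. The files give no gene name for these classes, and several probes may report on 1 gene, so the counts are of probes. Rises outnumbered falls in each class, and the read-derived probes had the lowest median level, -1.87 against -0.89 for contigs.

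The largest changes among probes measured on all 8 arrays and of 1 direction in all cultures belonged to probes without a gene name in the files. The probe labelled TC125765, a transcript contig, was at -2.98 in culture 4, -3.83 in culture 8, -3.70 in culture 9 and -4.09 in culture 10 at day 3. At day 8 it was at 1.64 in culture 4, 0.79 in culture 8, 1.10 in culture 9 and 1.44 in culture 10. All 4 arrays of day 8 lay above all of day 3, by 4.89 ± 0.28 (SE), or 29.7-fold (limma, adjusted p = 1.78e-06), and the mean stayed near that level at day 15 (1.45) and day 21 (1.15). The read-derived probe GAY7CUQ02I57GZ.s.om.10 rose by 4.74 ± 0.25. Its means were -3.32, 1.42, 1.65 and 1.34 at days 3, 8, 15 and 21, close to the -3.65, 1.24, 1.45 and 1.15 of TC125765. Whether both probes report on 1 gene was not tested.

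Among probes measured on all 8 arrays and of 1 direction in all cultures, the probe labelled X81485.s.om.10 fell most. Its day 3 values were 5.80 in culture 4, 5.36 in culture 8, 4.64 in culture 9 and 6.36 in culture 10, and its day 8 values were -3.26 in culture 4, -4.43 in culture 8, -1.47 in culture 9 and 2.73 in culture 10. The days did not overlap, but culture 10 kept the highest level at day 8 and the SD between cultures was 3.14 there, against 0.73 at day 3. The mean difference was -7.14 ± 0.81 (limma, adjusted p = 0.000143). The mean was -7.01 at day 15 and -5.83 at day 21, and of all 16 arrays 9 had it well above background. The lowest signals well above background on the day 15 arrays were -5.53 to -5.17, so the size of a further fall was not measured. The probe F6VG15V02H1KD7.s.om.10 fell by 5.67 ± 0.58, and there too culture 10 had the highest day 8 value, 0.040, with the other cultures between -4.27 and -2.73.

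The cultures resembled each other in the step, with culture 10 the least alike. Across the 42541 probes, which share arrays within a culture and are not independent, the differences of cultures 8 and 9 correlated at r = 0.80. Those of culture 4 correlated at 0.60 with culture 8 and 0.57 with culture 9, and those of culture 10 with the others at 0.40 to 0.47. The SD of the differences was 0.97 in culture 10 and 0.88 to 0.90 in the others. When the calls were made on 3 cultures and read in the one left out, 99.0% of the higher and 99.0% of the lower probes had the same direction in culture 8, and 97.9% and 99.5% in culture 9. In culture 10 the shares were 89.0% and 88.4%, with medians of 1.44 and -1.33, against 2.10 and -2.05 in the other cultures. These were the 1126 higher and 733 lower probes called without culture 10. The calls required a ratio above 3 in the mean of the other cultures, which enlarges their medians. A smaller median in the culture left out can therefore come in part from the choice of probes. With culture 8 left out, its medians were 2.13 and -2.29, against 2.14 and -2.19 in the others. For culture 9 they were 1.87 and -2.45, against 2.15 and -2.18. How much of the smaller medians in culture 10 came from that choice was not tested. Over all tested probes, 42.1% to 50.1% were higher at day 8 in a single culture.

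Culture 4, whose arrays were on the opposite slides, shared the direction of 917 of 979 probes called higher in the other cultures (93.7%) and of 560 of 576 called lower (97.2%). Its medians of 1.75 and -1.48 were smaller than those of the other cultures, 2.10 and -2.24, which had set the calls and whose medians that choice enlarges. Within slide 1, where 1 array of day 8 stood against 3 of day 3, 985 of the 996 higher and 587 of the 607 lower probes had the called direction. Within slide 2, with 3 arrays against 1, these were 989 and 606. Those arrays are among the ones that set the calls, so the within-slide counts describe the slides and are no independent check.

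**Figure D2:**
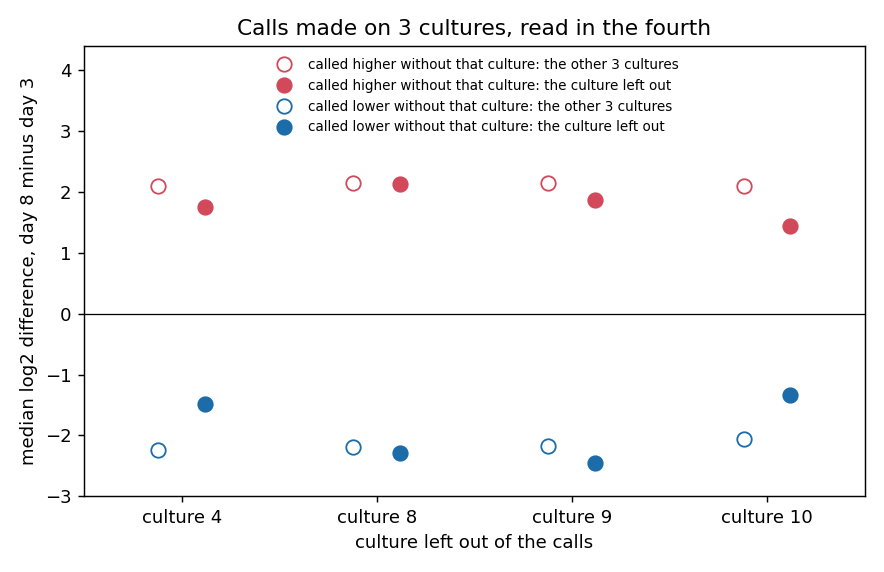
Median log2 difference, day 8 minus day 3 (y axis), of the probes called without the culture named on the x axis. Open circles give the 3 cultures that set the calls and filled circles the culture left out, in red for probes called higher and in blue for those called lower. All filled circles lie on the side of the open ones, nearest to 0 in culture 10 (1.44 and -1.33). The choice of probes moves the open circles away from 0.

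Of the 60195 probes, 53 had a name that could be read as a gene, 4 of them through a RefSeq accession, and 39 of these were tested. At an adjusted p below 0.02, with no ratio asked for, 8 of the 39 were higher at day 8 (20.5%) and 0 lower, while 8.93% of all tested probes were higher and 9.41% lower. The median difference of the 39 was 0.39, and 30 had a positive mean difference, against 46.4% of all probes. The arrays of day 8 lay wholly above those of day 3 for 10 of them (25.6%) and wholly below for 1 (2.56%), against 9.80% and 11.5% of all tested probes. With the ratio above 3 as well, 2 were called, Wnt4a and hexokinase. Within a single slide, where 1 array stood on one side, none of the 8 passed, although their differences kept the positive sign on both slides apart from scleraxis on slide 2. The names include 3 shortened ones that were read as an enzyme from its substrate (phosphoenolpyruvate, ATP-citrate and L-3-hydroxyacyl-CoA) and the ambiguous GR. A further 9 tested probes with names too short to read were kept apart, and 2 of them, LDL and Acyl-coenzyme, were lower, so the count of 0 lower holds for the 39 as read here. How these probes came to be on the array was not examined.

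**Figure D3:**
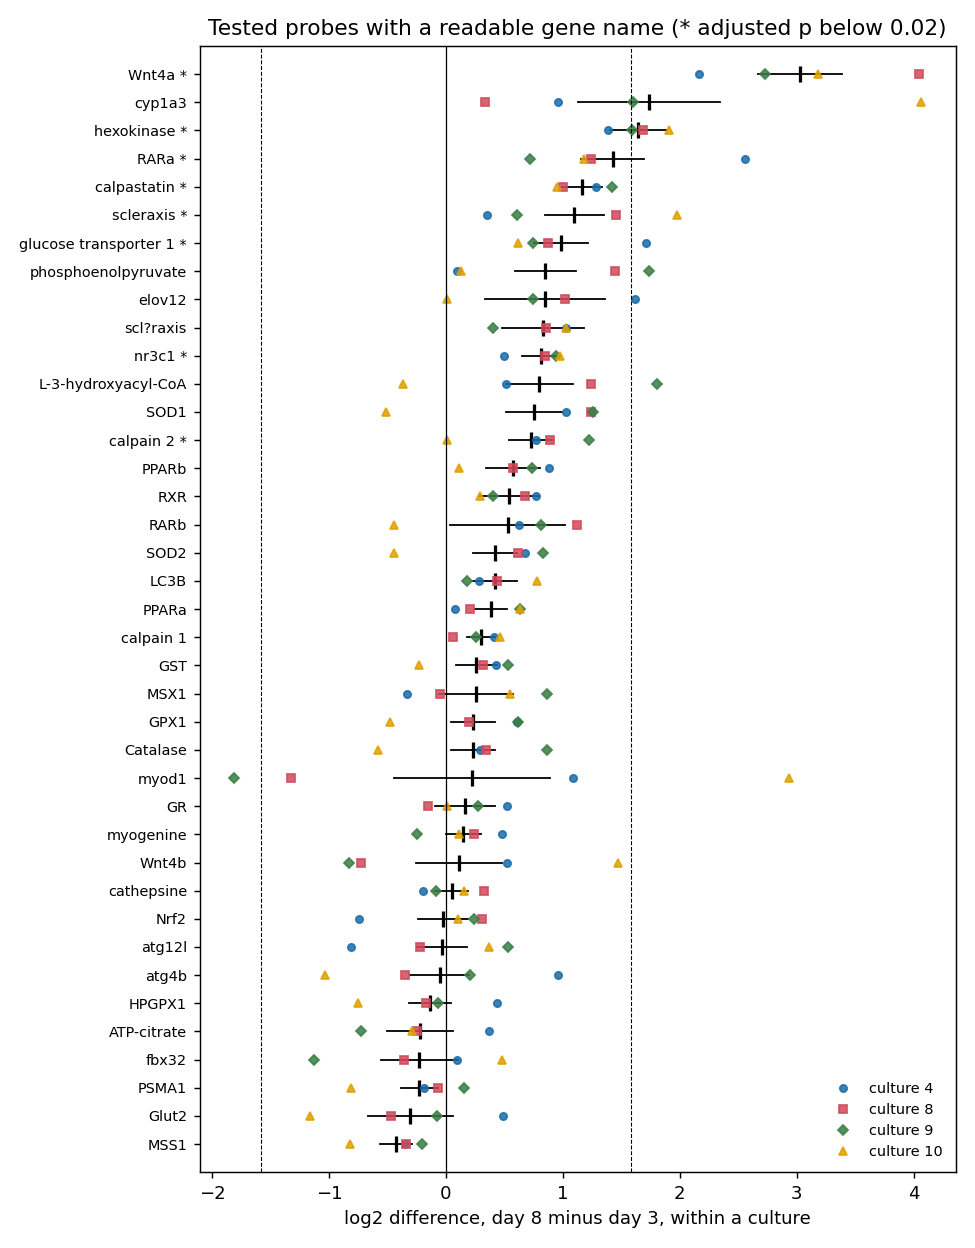
The 39 tested probes with a readable gene name, ordered by their mean log2 difference, day 8 minus day 3 (x axis). Coloured symbols are the 4 cultures, black ticks the mean and black bars the SE of the limma model, stars mark an adjusted p below 0.02 and dashed lines a ratio of 3. Stars stand only at positive differences, from 0.73 for calpain 2 to 3.03 for Wnt4a.

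Wnt4a, which encodes a secreted Wnt ligand, had the largest difference of the named probes on the processed signal. At day 3 it was at -4.83 in culture 4, -4.77 in culture 8, -4.28 in culture 9 and -5.24 in culture 10. At day 8 it was at -2.67 in culture 4, -0.72 in culture 8, -1.55 in culture 9 and -2.05 in culture 10. All day 8 arrays lay above all day 3 arrays, with culture 8 highest and culture 4 lowest at day 8. The difference was 3.03 ± 0.36 (SE), or 8.17-fold (limma, adjusted p = 0.000169), and its signal was well above background on 2 of the 4 arrays of day 3 and all 4 of day 8. With normexp background correction, which raises the floor of dim signals, it was 1.60 (adjusted p = 0.00103), below the 1.66 of cyp1a3 (adjusted p = 0.0338), and the adjusted p of Wnt4a over all alternatives ran from 0.000110 to 0.0809. From -1.75 ± 0.82 (SD, n = 4) on day 8 its mean then went back to -3.71 ± 0.80 on day 15 and -4.76 ± 0.79 on day 21. The probe of the paralogue Wnt4b had -4.49, -3.41, -3.62 and -5.56 at day 3 and -3.97, -4.14, -4.45 and -4.09 at day 8 in cultures 4, 8, 9 and 10. Its days overlapped, it was higher in 2 cultures and lower in 2, and its difference was 0.11 ± 0.37 (adjusted p = 0.858).

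Of 3 tested probes for glucose uptake and its first metabolic step, 2 were higher. The share was 8.93% of all tested probes and 20.5% of the 39 readable ones, from which the list was drawn. Hexokinase, which phosphorylates glucose on entry into the cell, was at -2.96 in culture 4, -3.12 in culture 8, -2.59 in culture 9 and -3.36 in culture 10 at day 3. At day 8 it was at -1.57 in culture 4, -1.43 in culture 8, -0.99 in culture 9 and -1.45 in culture 10. The days were fully apart, the rise was close to even over cultures, and the difference was 1.65 ± 0.24, or 3.13-fold (adjusted p = 0.000655), just past the ratio of 3. The ratio fell short of 3 without culture 10, at a difference of 1.56 (adjusted p = 0.00415), and with normexp, at 1.09 (adjusted p = 0.00102), and the adjusted p over the alternatives ran from 0.000394 to 0.233.

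Glucose transporter 1, a facilitative carrier that many growing cells use, was at 0.95, 1.17, 1.38 and 1.27 at day 3 in cultures 4, 8, 9 and 10, and at 2.66, 2.04, 2.13 and 1.88 at day 8. Every day 8 array was above every day 3 array, with the largest rise in culture 4. The difference was 0.98 ± 0.23 (adjusted p = 0.00824), and its adjusted p over the alternatives ran from 0.00544 to 0.325, above 0.02 on the 8 arrays alone with the culture block (0.0376, and 0.0153 without it) and without culture 4 (0.0494), 8 (0.0392) or 9 (0.0319). The second carrier, Glut2, known from mammalian liver and pancreas, had 0.050, -1.91, -1.46 and -0.53 at day 3 and 0.54, -2.38, -1.53 and -1.69 at day 8. Its spread between cultures was wider than its difference of -0.30 ± 0.36 (adjusted p = 0.569). Glucokinase, the liver-type hexokinase of mammals, was well above background on 0 of 4 arrays at day 3 and 1 of 4 at day 8 and was not tested. The median of the 3 tested probes was 0.98.

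In the proteolysis list, 2 of 7 tested probes were higher, beside 8.93% of all tested probes and 20.5% of the 39 readable ones. Both belong to the calpain system of calcium-dependent proteases. Calpastatin, the inhibitor of calpains, was at 3.94, 4.30, 4.00 and 4.14 at day 3 in cultures 4, 8, 9 and 10, and at 5.23, 5.30, 5.42 and 5.09 at day 8. The days did not overlap, and every culture rose by a similar amount, and the difference was 1.17 ± 0.17, or 2.24-fold (adjusted p = 0.000613). The level was higher again after the differentiation medium, at 6.84 ± 0.34 (SD, n = 4) at day 15. Calpain 2, one of the proteases it inhibits, was at 3.87, 4.29, 4.16 and 4.35 at day 3 and 4.64, 5.18, 5.39 and 4.37 at day 8. Culture 10 barely moved, at 0.014, and its day 8 value was only just above its own day 3 value, the highest of that day. The difference was 0.73 ± 0.18 (adjusted p = 0.0122), with an adjusted p of 0.0538 without the culture block and of 0.00292 to 0.552 over the alternatives, above 0.02 also without culture 4, 8 or 9 (0.0576, 0.105 and 0.0992).

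The other 5 did not pass. Calpain 1 differed by 0.30 ± 0.12 (adjusted p = 0.0854), with no overlap between days. The proteasome subunits differed in the other direction, PSMA1 of the core particle by -0.23 ± 0.16 (adjusted p = 0.307) and MSS1, an ATPase of the regulatory particle, by -0.43 ± 0.14 (adjusted p = 0.0343). MSS1 was the probe whose day 8 arrays (5.56 to 5.84) all lay below those of day 3 (5.92 to 6.38). The lysosomal protease probe, spelled cathepsine, differed by 0.051 ± 0.14 (adjusted p = 0.820), and fbx32, an F-box protein of ubiquitin ligases known from wasting mammalian muscle, by -0.23 ± 0.33 (adjusted p = 0.652).

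Of the nuclear receptors, 1 of 5 tested was higher, beside 8.93% of all tested probes, and a list this small cannot tell these shares apart. RARa, a retinoic acid receptor, was at -5.14, -4.41, -4.10 and -4.34 at day 3 in cultures 4, 8, 9 and 10, and at -2.58, -3.16, -3.38 and -3.16 at day 8. The days were apart and culture 4 had both the lowest day 3 and the highest day 8 value. The difference was 1.43 ± 0.27 (adjusted p = 0.00263), but only 2 of 4 day 3 arrays were well above background, and the adjusted p over the alternatives ran from 0.000640 to 0.0751. It was 0.0503 with normexp background correction, which brought the difference to 0.48, and on the 8 arrays alone 0.0299 with and 0.00961 without the culture block. RARb differed by 0.53 ± 0.49 (adjusted p = 0.457), and RXR, the common partner of these receptors, by 0.54 ± 0.26 (adjusted p = 0.141).

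The PPAR family are fatty acid sensors, and PPARγ is the central regulator of fat cell formation in mammals. PPARa differed by 0.39 ± 0.13 (adjusted p = 0.0499) and PPARb by 0.57 ± 0.23 (adjusted p = 0.0800), both higher in 4 of 4 cultures but past the threshold in neither case. Without culture 10, where it rose least, PPARb passed at 0.73 (adjusted p = 0.0189). It did not pass without culture 4, 8 or 9 (adjusted p of 0.255, 0.24 and 0.195), and the range over the alternatives was 0.0189 to 0.866. The day 8 values of PPARb, 0.88, 0.18, 0.26 and 0.023, were all above those of day 3, -0.0065, -0.40, -0.47 and -0.085. The PPARg probe was well above background on none of the 8 arrays and could not be tested, nor was it on any array of days 15 and 21. It is the only one of 10 adipocyte markers with a readable probe. The label of the cells could therefore not be checked against fat cell markers through named probes. The paper reports from Western blots that PPARγ protein was raised from confluence onward. The paper also describes the C/EBPα transcript as up-regulated from that time. Whether the PPARg probe can detect its transcript was not tested, so its dim signal does not show that the gene was silent.

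The glucocorticoid receptor, nr3c1, binds cortisol and also dexamethasone, which the cells had not yet received at day 8. Its probe was at 1.15, 1.06, 0.96 and 0.90 at day 3 in cultures 4, 8, 9 and 10, and at 1.65, 1.91, 1.90 and 1.88 at day 8. The days were well apart, with the smallest rise in culture 4. The difference was 0.82 ± 0.16 (adjusted p = 0.00335), and the adjusted p over the alternatives ran from 0.00240 to 0.361, being 0.0311 on the 8 arrays alone with the culture block (0.0101 without it), 0.0316 without culture 8 and 0.0339 without culture 9. A probe labelled GR, a label that does not say which gene is meant, differed by 0.16 ± 0.26 (adjusted p = 0.675).

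None of the 6 antioxidant enzymes, which remove superoxide, peroxides and reactive electrophiles, passed the test, and their median difference was 0.25. Over all tested probes 8.93% were higher and 9.41% lower, so 0 of 6 is near those shares. SOD1, the cytosolic superoxide dismutase, was at 3.85, 3.54, 3.39 and 4.27 at day 3 in cultures 4, 8, 9 and 10, and at 4.88, 4.78, 4.65 and 3.76 at day 8. It rose by 1.03 to 1.26 in cultures 4, 8 and 9 and went the other way in culture 10, at -0.51, for a difference of 0.76 ± 0.24 (adjusted p = 0.0345). The mitochondrial SOD2 differed by 0.42 ± 0.19 (adjusted p = 0.125), Catalase by 0.23 ± 0.19 (adjusted p = 0.396), GPX1 by 0.23 ± 0.19 (adjusted p = 0.385), GST by 0.26 ± 0.17 (adjusted p = 0.284) and HPGPX1 by -0.14 ± 0.18 (adjusted p = 0.605). In culture 10 all 6 were lower at day 8, with differences from -0.75 to -0.23. In culture 4 all 6 were higher, and 5 of 6 were in cultures 8 and 9. Of all tested probes, 50.1%, 48.8%, 42.1% and 49.7% were higher in cultures 4, 8, 9 and 10. The 6 probes share the arrays of a culture and are not independent. Without culture 10, the one in which both were lower, SOD1 differed by 1.18 (adjusted p = 0.000628) and SOD2 by 0.71 (adjusted p = 0.00980). Without culture 4, 8 or 9 neither passed (adjusted p of 0.154, 0.225 and 0.221 for SOD1 and 0.329, 0.379 and 0.463 for SOD2). The adjusted p over the alternatives ran from 0.000628 to 0.556 for SOD1 and from 0.00980 to 0.544 for SOD2. Nrf2, the transcription factor that controls many such genes in mammals, differed by -0.022 ± 0.21 (adjusted p = 0.951).

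None of the 4 tested probes of fatty acid and glucose synthesis and fatty acid oxidation passed with all 4 cultures. Over all tested probes the shares were 8.93% higher and 9.41% lower. The probe labelled phosphoenolpyruvate, a label that stops before the name of the enzyme, was at -0.53, -1.18, -1.13 and -0.44 at day 3 in cultures 4, 8, 9 and 10 and at -0.43, 0.26, 0.62 and -0.32 at day 8. The days did not overlap but cultures 4 and 10 moved by only 0.096 and 0.13, and the difference was 0.85 ± 0.26 (adjusted p = 0.0301). L-3-hydroxyacyl-CoA, whose dehydrogenase acts in fatty acid oxidation, was at 2.29, 2.20, 2.12 and 2.83 and then 2.80, 3.44, 3.93 and 2.47. It was higher in cultures 4, 8 and 9 and lower in culture 10, with a difference of 0.80 ± 0.29 (adjusted p = 0.0555). Without culture 10 both passed, phosphoenolpyruvate at 1.09 (adjusted p = 0.0198) and L-3-hydroxyacyl-CoA at 1.19 (adjusted p = 0.00823). Neither passed in any other alternative, and their adjusted p ran from 0.0198 to 0.498 and from 0.00823 to 0.548. ATP-citrate, named for the lyase that supplies acetyl-CoA for fatty acid synthesis, differed by -0.22 ± 0.29 (adjusted p = 0.603), and elov12, a fatty acid elongase of a Salmo salar sequence, by 0.85 ± 0.52 (adjusted p = 0.248). The elongase elovl5b was well above background on none of the 8 arrays, and glucose-6-phosphatase on 2 of 4 at day 3 and 1 of 4 at day 8, so neither was tested.

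The 3 autophagy probes did not pass the test, beside 8.93% of all tested probes higher and 9.41% lower, and had a median difference of -0.032. LC3B, the protein that coats autophagosomes, was higher in 4 of 4 cultures and differed by 0.42 ± 0.19 (adjusted p = 0.117). The conjugation factor atg12l differed by -0.032 ± 0.22 (adjusted p = 0.930), and atg4b, the protease that processes LC3 proteins, by -0.051 ± 0.25 (adjusted p = 0.903).

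Scleraxis, a transcription factor of tendon precursors, was carried by a pair of probes. The probe that passed was at -3.30, -5.66, -4.15 and -4.16 at day 3 in cultures 4, 8, 9 and 10, and at -2.95, -4.21, -3.54 and -2.18 at day 8. It was higher in 4 of 4 cultures, but the days overlapped and the values of a single day spanned more than the mean difference. The difference was 1.10 ± 0.25 (adjusted p = 0.00778), the adjusted p was 0.177 without the culture block and above 0.02 without culture 8, 9 or 10, and the range over the alternatives was 0.00423 to 0.996. With normexp the difference was 0.42, and within slide 2 the difference was -0.012. The second probe, whose label has one letter replaced by a question mark, differed by 0.83 ± 0.35 (adjusted p = 0.100). MSX1, a homeobox factor of undifferentiated cells, differed by 0.26 ± 0.32 (adjusted p = 0.585).

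Myod1, a master factor of muscle, showed how far cultures could part. It was at -1.13 in culture 4, -2.53 in culture 8, -1.94 in culture 9 and -2.13 in culture 10 at day 3, and at -0.037 in culture 4, -3.85 in culture 8, -3.75 in culture 9 and 0.81 in culture 10 at day 8. It was higher at day 8 in cultures 4 and 10 and lower in cultures 8 and 9, and the difference was 0.22 ± 0.67 (adjusted p = 0.837). Myogenine, which acts later in muscle formation, differed by 0.15 ± 0.15 (adjusted p = 0.500). Myf5, mrf4, Pax7, fast_mlc1, Fast_myosin and skelemin were not well above background on all arrays of any day and fast_mlc3 lacked a value on 1 array, so these 7 were not tested. Of 8 muscle markers 4 had a probe (myod1, myogenine, myf5 and Fast_myosin). Their summed linear signal relative to the 75th percentile was 0.352 to 0.615 at day 3 and 0.201 to 1.91 at day 8. The highest sum, in culture 10 at day 8, was mostly myod1, with myogenine at -2.96 and the others lower still. The part of these markers in the other results was not tested. The marker lists of fibroblasts, erythrocytes, leucocytes, endothelial and mesothelial cells matched no readable probe.

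Cyp1a3, a cytochrome P450 that aryl hydrocarbon receptor ligands induce in trout, had the second largest mean difference of the named probes on the processed signal, without passing the test. It was at 0.30 in culture 4, 2.49 in culture 8, 0.61 in culture 9 and -1.13 in culture 10 at day 3, and at 1.26 in culture 4, 2.83 in culture 8, 2.21 in culture 9 and 2.93 in culture 10 at day 8. All 4 cultures were higher at day 8, by as little as 0.34 in culture 8 and as much as 4.07 in culture 10, and the days overlapped. The difference was 1.74 ± 0.60 (adjusted p = 0.0498). The other probes named through RefSeq, rhbg2a and nhe3, carriers of ammonia and of sodium and protons, and the probes of PPARg, glucokinase and Sox5 were among the 14 readable probes not tested.

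A further 11 labels break off too early to point to 1 gene or enzyme, and of the 9 such probes tested 2 were lower and 0 higher, beside 9.41% and 8.93% of all tested probes. The probe labelled Salmo_salar_Acyl-coenzyme was at -1.71, -1.63, -1.85 and -2.33 at day 3 in cultures 4, 8, 9 and 10 and at -3.16, -2.80, -2.63 and -3.02 at day 8, a difference of -1.02 ± 0.16 (adjusted p = 0.000939). The probe labelled LDL was at 0.83, 1.20, 1.14 and 0.93 and then 0.46, 0.18, 0.041 and 0.051, a difference of -0.84 ± 0.19 (adjusted p = 0.00724). In both cases all day 8 arrays lay below all day 3 arrays. Both were named after their values were seen, and their adjusted p ran over the alternatives from 0.000616 to 0.264 and from 0.00341 to 0.465. The LDL probe was above 0.02 without culture 8, 9 or 10 (0.0713, 0.0468 and 0.0311), and both were above it on the 8 arrays alone with the culture block (0.0233 for Acyl-coenzyme and 0.0367 for LDL) but not without the block (0.0138 and 0.0142).

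**Figure D4:**
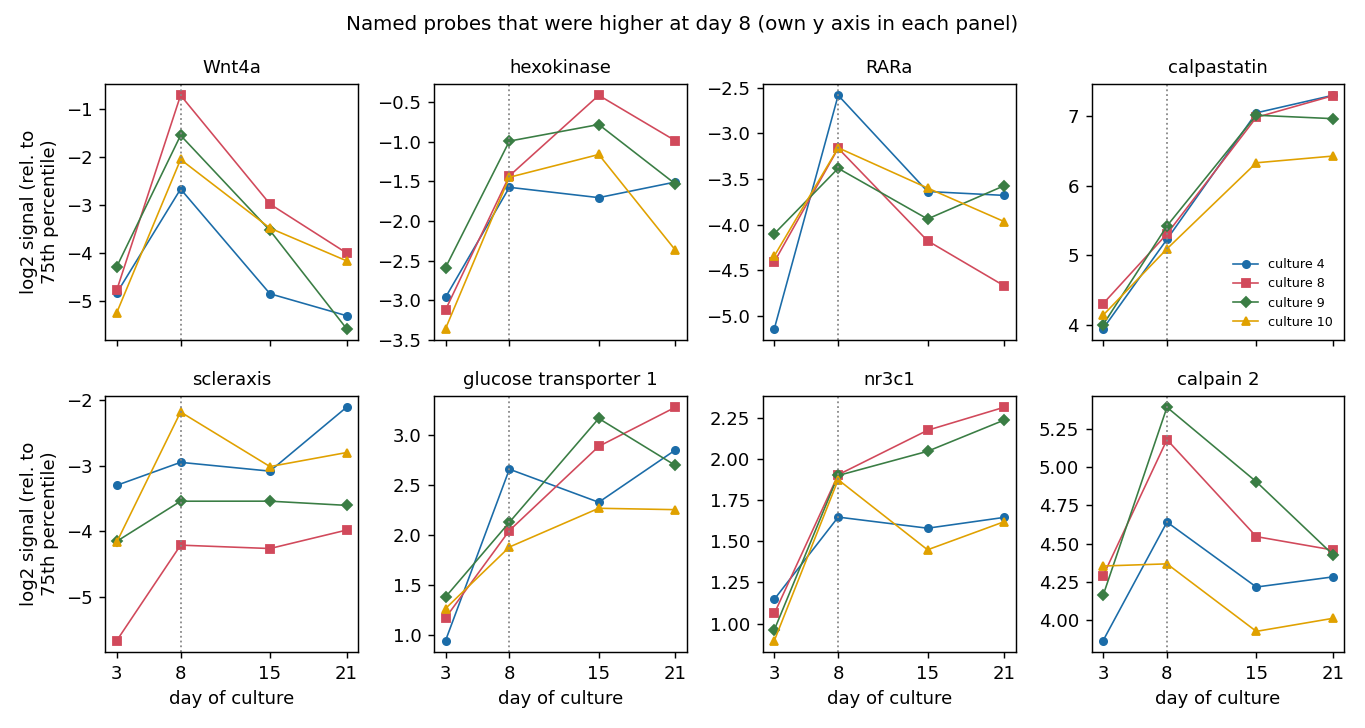
The 8 named probes that were higher at day 8, as log2 signal relative to the 75th percentile of the array (y axis, own scale in each panel) at days 3, 8, 15 and 21 of culture (x axis), with 1 line per culture. The dotted line marks day 8, after which the differentiation mixture was added. Wnt4a, RARa and calpain 2 have their highest mean at day 8, and calpastatin and glucose transporter 1 have higher means at days 15 and 21.

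Over the later days, the levels reached at confluence were kept by most but not all called probes. The median of the 996 higher probes, averaged over cultures, went from -2.75 ± 0.11 (SD, n = 4) before to -0.49 ± 0.075 after the step, and was -0.55 ± 0.18 on day 15 and -0.63 ± 0.14 on day 21. For the 607 lower probes it went from -0.36 ± 0.097 to -2.74 ± 0.36, and then to -3.20 ± 0.24 and -3.19 ± 0.17. With the means of days 15 and 21 averaged, 453 of the higher probes lay past their day 8 level and 215 more stayed over 3-fold above day 3. The other 328 lay within 3-fold of day 3, Wnt4a among them. Of the lower probes 452 lay past their day 8 level, 96 stayed over 3-fold below day 3, 58 lay within 3-fold of it and 1 was over 3-fold above it. The ratio of 3 also set the calls, so a probe called just past it can come within it after a small change. The 328 and 58 are thus not counts of full returns to the day 3 level. The differences between days 3 and 8 chose these probes, and the arrays of days 15 and 21 entered the filter and the spread behind each adjusted p. The later levels are thus not wholly free of that choice. The counts are also measured against the chosen day 3 and day 8 means, and all are given without a test. Culture 4 and culture 10 had the highest day 8 medians of the lower probes, -2.39 and -2.48, against -3.08 and -3.02 in cultures 8 and 9.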

How the data were processed

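Cy3-labelled RNA was hybridised to 16 one-colour Agilent arrays, 1 per culture and day. The authors deposited the spot intensity values of each array as extracted with Agilent Feature Extraction 10.7.3.1, per the submitters' processing notes, with background subtracted and no normalization between arrays. A second deposited table holds log2 values that match the log2 processed signals to within 0.001 after adding 1 constant per array, and served as an alternative. Control and outlier spots were left out (8 to 272 outlier spots per array of days 3 and 8), log2 values were averaged over the spots of a probe and expressed relative to the 75th percentile of the array, and 1050 probes lacking a value on an array were dropped. A probe was tested if some day had all 4 of its arrays well above background, which left 42541, with limma 3.58.1 in R 4.3.3, on all 16 arrays with culture as a block, for day 8 minus day 3. A probe was called when its ratio exceeded 3 and its Benjamini-Hochberg adjusted p was below 0.02, the study's own limits applied here to the adjusted value. Tables and figures were made with Python 3.11.15, numpy 2.4.6, pandas 2.3.3 and matplotlib 3.10.9.

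Each culture number marks 1 pool of cells followed over time, which pairs its arrays. The deviations of the day 3 and day 8 arrays from their day means correlated over probes at 0.37, 0.39, 0.099 and -0.14 in cultures 4, 8, 9 and 10. When slide was added to day and culture, its own term passed an adjusted p of 0.05 for 6 probes. On simulated data with 200 changed probes among 42541, the model called 82.5% of true 4-fold and 95.5% of true 8-fold changes, with 0 and 2 false calls. The simulated noise was independent between probes and equal on all days, with no slide effect and no culture responding differently. These rates therefore need not hold for the real arrays.

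Named probes are all that passed the filter with a readable gene name, grouped by pathway, and at most 2 unnamed probes per direction with the largest change among called probes measured on all 8 arrays and of 1 direction in 4 of 4 cultures. The members and lists were chosen with earlier results of these data known. Of 7 RefSeq accessions on the array, 4 were named through the RefSeq gene table of USDA_OmykA_1.1, whose coordinates were not used. The lists for insulin and IGF signalling, cell cycle, early adipogenic factors, lipid transport and extracellular matrix had no readable probe. Alternatives were the model without the culture block, the 8 arrays alone, normexp (offset 50, on median signals), quantile normalization, another percentile, 3 other filters, slide as a block, the deposited log2 values, a one-way ANOVA on the 8 arrays, other thresholds and leaving out each culture. Fits within each slide were added after seeing the data.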

Additional observations from a re-analysis of the deposited data

Results flagged for a closer look

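Among 90 groups of 4 cultures of the named and leading probes, 6 held 1 culture far from the other 3 by Dixon's ratio at its 95% critical value, and chance flags about 1 in 20. Catalase in culture 10 at day 8 was at -1.65, with the other cultures at -0.71 to -0.55. GST in culture 10 at day 8 was at 6.22, against 6.67 to 6.76. The nr3c1 probe in culture 4 at day 8 was at 1.65, against 1.88 to 1.91. At day 3, calpain 1 in culture 9 was at 2.08 with the others at 2.27 to 2.28, atg12l in culture 9 at 1.47 with the others at 1.63 to 1.65, and GR in culture 8 at 2.56 with the others at 2.23 to 2.25.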

How the results depend on the processing

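The counts of 996 higher and 607 lower probes became 476 and 306 with normexp, 2714 and 2064 at an adjusted p below 0.05 and a ratio above 2, and 3801 and 4004 with no ratio. A one-way ANOVA on the 8 arrays with a ratio above 3 gave 908 and 531 at an unadjusted p below 0.02, and 328 and 138 after adjustment. The paper's ANOVA compared the different days and names no adjustment, so neither pair repeats it. In limma with only probes well above background on all 16 arrays, 359 were lower, of fewer tested. Leaving out 1 culture gave 713 to 1126 higher and 389 to 733 lower, with 389 lower without culture 8 and 391 without culture 9. Without the culture block, which pairs the arrays, 797 and 427 were called. Of the 8 named probes that rose, calpain 2 and scleraxis then no longer passed an adjusted p of 0.02. On the 8 arrays alone, 788 and 522 were called with the block and 790 and 407 without it. With no ratio, the 8 arrays with the block gave 1498 and 1102. RARa, glucose transporter 1 and nr3c1 were among the named probes that did not pass there. Their passing rests in part on the spread of the day 15 and day 21 arrays. Within slide 1 there were 1 higher and 0 lower calls in limma with 8841 probes at an unadjusted p below 0.05, and within slide 2 there were 6 and 14 with 7032, with 1 array on one side in each, whose spread is assumed to be that of the others. Within slide 1 the median difference over all probes was 0.019, against -0.046 over both slides. All 1603 called probes kept their direction under every alternative in which they were tested other than within slide 1 (1572) and slide 2 (1595). Changing the block or the filter, or using the 8 arrays alone, cannot alter a mean difference, and the other alternatives reuse arrays that chose the probes. A kept direction is therefore no independent check. Of the 1603, 759 were also called with normexp and 1004 without culture 8.

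Of the 8 named probes that rose, only scleraxis changed sign in any alternative. Signs turned within slide 1 for Glut2 1.84, HPGPX1 0.41, MSX1 -0.47, atg4b 1.17, cathepsine -0.15, fbx32 0.13. They turned within slide 2 for ATP-citrate 0.14, Catalase -0.050, atg12l 0.16, myod1 -1.14, the second scleraxis probe -0.66, scleraxis -0.012. Leaving out 1 culture gave HPGPX1 -0.33 to 0.068, Nrf2 -0.13 to 0.22, Wnt4b -0.35 to 0.42, atg12l -0.22 to 0.23, atg4b -0.39 to 0.27, cathepsine -0.041 to 0.13, fbx32 -0.46 to 0.074 and myod1 -0.68 to 0.90. Nrf2 was at 0.016 with normexp, 0.0038 with quantile normalization and 0.0070 in the deposited values. Wnt4b was at -0.17 with normexp, and atg4b at 0.018 with quantile normalization and 0.075 with slide as a block. The cause was not tested in any of these. Of 817 values of single probes under an alternative, 64 kept their sign but no longer passed an adjusted p of 0.02. Scleraxis within slide 2, where its sign turned, is not counted among them. A further 6 newly passed that limit, ratio aside. Of these 6, 5 were without culture 10 (SOD1, SOD2, PPARb, L-3-hydroxyacyl-CoA and phosphoenolpyruvate) and 1 was SOD1 with quantile normalization. Dim probes are limited by signal over background, and 4 cultures limit every test.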
